A study of Mus musculus with 4 samples.

Results

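This account covers 9 enzyme genes of polyamine, purine, pyrimidine and one-carbon synthesis in the cochlea, the auditory part of the inner ear, of mouse embryos at embryonic day 15. The genes were chosen by Ensembl ID from a fixed list of pathway enzymes (Odc1, Srm, Cad, Ppat, Paics, Gart, Impdh2, Shmt2 and Mthfd2), and 8 of the 9 had a value among the 23879 genes tested. Impdh2, an enzyme of guanine nucleotide synthesis, was not analysed here. Whole cochleae labelled N-myc ko (2 arrays) were compared with whole cochleae labelled wild-type (2 arrays), all of strain 129/Sv and CD-1. Per the labels, the 2 arrays of each group are biological replicates, and mutant embryos were told from wild-type embryos by PCR. The sources used here give neither the mutant allele or Cre driver nor the number of embryos in a sample. The p-values therefore cover only the variation among these samples, part of which may be technical. The level of Mycn itself and the defining markers of cochlear and neighbouring cell types were not analysed here, because the table gives Ensembl IDs without symbols.

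N-myc belongs to the MYC family of transcription factors, which bind DNA as partners of MAX at E-box sequences and are known for driving growth and nucleotide supply in dividing cells. Odc1 and Cad are textbook MYC target genes, and Shmt2 is another known target. Polyamines are small positively charged molecules that growing cells make from ornithine. Purines and pyrimidines are the bases of RNA and DNA, and the purine ring takes part of its carbon from formyl groups carried by folate. In mitochondria, SHMT2 and MTHFD2 act in sequence on folate to supply such groups. Cad belongs to pyrimidine synthesis, so the set spans 4 pathways rather than the 3 of its working name.

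Most of the measured enzyme genes had lower values in N-myc ko cochleae, and 1 was higher. Values are RMA expression values on the log2 scale, and calls rest on limma p-values adjusted over all genes, with a limit of 0.14. The limit was taken from the false discovery rate of up to 14% that the study gives. The study names another tool, significance analysis of microarrays, so the measures differ. Shmt2, Srm, Cad and Gart were called lower, Odc1 was called higher, and Ppat, Paics and Mthfd2 were not called. The 4 lower calls among 8 measured genes stand beside 19.8% of all genes called lower, and the 1 higher call beside 14.9% of all genes called higher. The median log2 change (N-myc ko minus wild-type) was -0.27 over the 8 genes and -0.03 over all genes. The 8 genes are bright, and genes of equal brightness also tended to have lower values. Dimmer genes, with a mean log2 value between 5 and 7, tended to have higher values. A median change was taken over the genes nearest to each enzyme gene in mean log2 value. The median of these medians was -0.19. When only genes above the median brightness were tested, 34% of them were called lower, and 5 enzyme genes were. No enzyme gene changed 2-fold. In whole tissue, fewer cells that express a gene and less RNA of that gene per cell cannot be told apart.

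The promoter sequences below belong to the pair with the widest changes in opposite directions and to the measured gene whose promoter window held an E-box. They come from RefSeq (GRCm38.p6) and are written 5′ to 3′ on the strand of the gene. Capitals mark the E-box CACGTG, which reads the same on both strands. For Odc1 and Shmt2 the stretch ends at the base before the span of the gene in the RefSeq gene table, which for Odc1 begins 65 bases ahead of the start used for its promoter window, and for Paics it is the 30 bases around the E-box.
Odc1 (chr12:17544623-17544807, plus strand): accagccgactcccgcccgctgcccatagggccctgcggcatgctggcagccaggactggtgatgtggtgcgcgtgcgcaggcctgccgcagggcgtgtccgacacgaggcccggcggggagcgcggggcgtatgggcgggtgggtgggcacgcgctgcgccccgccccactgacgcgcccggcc
Shmt2 (chr10:127522445-127522694, minus strand): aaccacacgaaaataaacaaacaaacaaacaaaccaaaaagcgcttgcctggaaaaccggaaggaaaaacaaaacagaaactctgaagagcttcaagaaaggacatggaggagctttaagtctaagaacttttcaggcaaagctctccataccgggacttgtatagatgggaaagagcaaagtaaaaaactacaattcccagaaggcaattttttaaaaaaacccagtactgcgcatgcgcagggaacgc
Paics (chr5:76951087-76951116, plus strand): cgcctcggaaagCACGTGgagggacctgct

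A promoter window of 300 bases, from 250 before to 50 after the start of the gene, was at hand for 8 of the 9 genes, 7 of them measured. CACGTG occurred in 2 of these windows, those of Paics and of Impdh2, and in 7.15% of the 32851 promoter windows of all genes. In Paics it began 203 bases before the start, inside the span of Ppat, its neighbour on the opposite strand. In Impdh2 it began 110 bases before the start. The window of Odc1 was the richest in CpG dinucleotides among the enzyme genes, with 42, and that of Shmt2 the poorest, with 13, against a median of 7 over all windows. CACGTG itself holds a CpG, and its share was not taken over windows equally rich in CpG. The printed stretch of Odc1 had a GC content of 77.8%, and that of Shmt2 of 40.8%. The absence of CACGTG says only that these letters are not in the window.

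The 2 polyamine genes moved in opposite directions. Odc1 encodes ornithine decarboxylase, which makes putrescine and controls entry into the pathway. Odc1 (ENSMUSG00000011179) had log2 values of 9.98 and 10.27 on the N-myc ko arrays, against 9.75 and 9.73 on the wild-type arrays. Both N-myc ko arrays lay above both wild-type arrays, and the N-myc ko arrays were farther apart from each other than the wild-type arrays. Odc1 rose by 0.39 on the log2 scale, to 1.31 times its wild-type level (SE 0.12, 95% interval 0.10 to 0.67, limma adjusted p = 0.073). The call was lost without wild-type replicate 1 (0.40, adjusted p = 0.171), wild-type replicate 2 (0.38, adjusted p = 0.193) or N-myc ko replicate 2 (0.25, adjusted p = 0.23), and Odc1 was higher in N-myc ko in each of these fits.

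Srm encodes spermidine synthase, which turns the putrescine made by ornithine decarboxylase into spermidine. Srm (ENSMUSG00000006442) had log2 values of 10.88 and 11.09 on the N-myc ko arrays, against 11.26 on both wild-type arrays. Both N-myc ko arrays lay below both wild-type arrays. Srm fell by 0.28 on the log2 scale, to 82.5% of its wild-type level (SE 0.11, 95% interval -0.53 to -0.02, limma adjusted p = 0.119). The difference between the genes was also taken within each array, a comparison chosen after the values were seen. Odc1 minus Srm was -0.90 and -0.82 on the N-myc ko arrays, against -1.52 and -1.54 on the wild-type arrays. The N-myc ko arrays differed from the wild-type arrays by 0.66 in this quantity (SE 0.04), and the 95% interval, from a linear model on 2 degrees of freedom, was 0.50 to 0.83. Leaving out 1 array gave differences from 0.63 to 0.70, and without either of the wild-type arrays the interval included 0. With 2 arrays against 2, an exact two-sided permutation test cannot give a p below 0.333.

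Cad encodes the multifunctional enzyme that carries out the opening steps of pyrimidine synthesis. Cad (ENSMUSG00000013629) had log2 values of 9.19 and 9.39 on the N-myc ko arrays, against 9.61 and 9.52 on the wild-type arrays. The groups did not overlap, and the nearest arrays, N-myc ko replicate 2 and wild-type replicate 2, were separated by less than the gap between the N-myc ko arrays. Cad fell by 0.28 on the log2 scale, to 82.6% of its wild-type level (SE 0.11, 95% interval -0.54 to -0.02, limma adjusted p = 0.126).

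**Figure D1:**
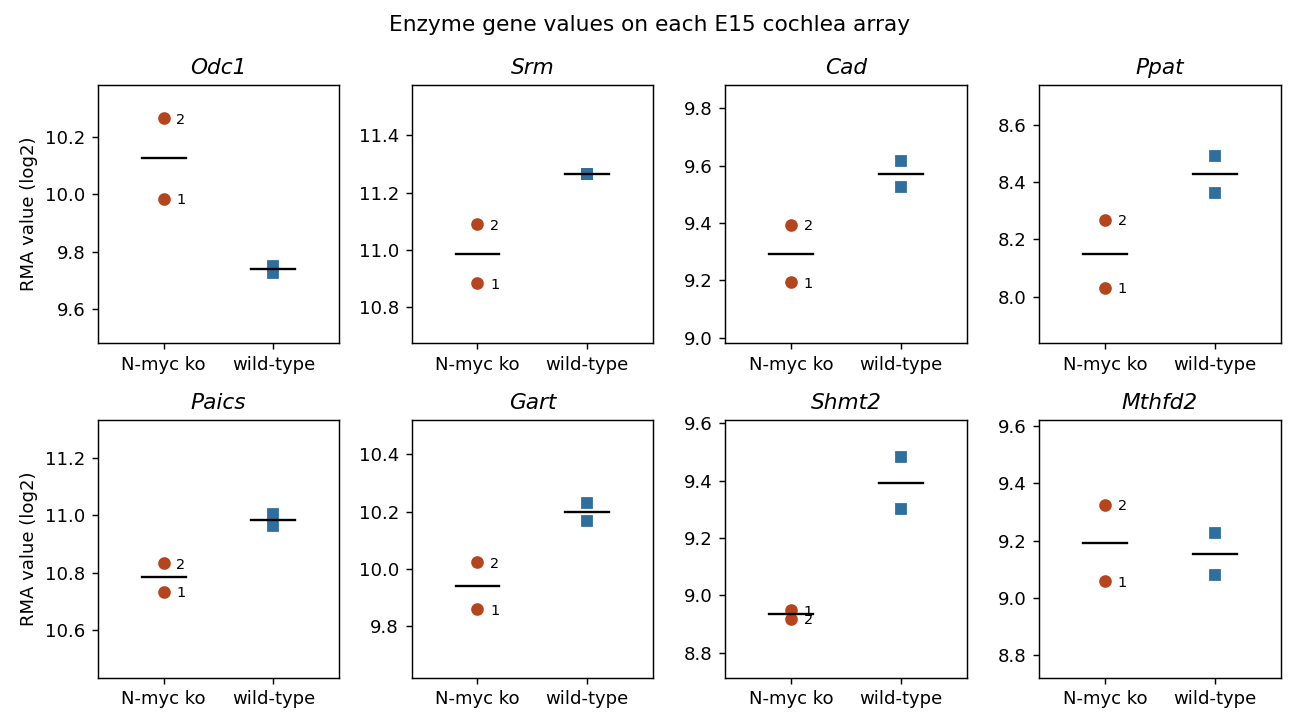
RMA values (log2) of the 8 measured enzyme genes on each array, N-myc ko as circles with the replicate number beside them and wild-type as squares, with a line at each group's mean (n = 2 each); every panel spans the same width on the log2 scale. Both N-myc ko arrays lie below both wild-type arrays for 6 genes, against 36.2% of all genes, and above them for Odc1, against 28.8%. The groups overlap for Mthfd2, and N-myc ko replicate 1 is the lower N-myc ko array for all genes but Shmt2.

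Of the 3 measured purine genes 1 was called. All 3 had lower values on both N-myc ko arrays than on both wild-type arrays, as did 36.2% of all genes. Gart encodes a trifunctional enzyme of the purine ring that uses formyl-folate. Gart (ENSMUSG00000022962) had log2 values of 9.86 and 10.02 on the N-myc ko arrays, against 10.17 and 10.23 on the wild-type arrays. Gart fell by 0.26 on the log2 scale, to 83.6% of its wild-type level (SE 0.10, 95% interval -0.50 to -0.01, limma adjusted p = 0.127). Its arrays stayed apart by group, and its gap between replicates was larger in N-myc ko than in wild-type.

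Ppat and Paics are neighbours on chromosome 5 on opposite strands, with overlapping starts in the RefSeq table. Ppat encodes the amidotransferase that commits a cell to purine synthesis, and Paics a bifunctional enzyme of later ring steps. Ppat (ENSMUSG00000029246) had log2 values of 8.03 and 8.27 on the N-myc ko arrays, against 8.49 and 8.36 on the wild-type arrays. The log2 difference was -0.28 (SE 0.12, 95% interval -0.56 to 0.004), and Ppat was not called (limma adjusted p = 0.147). Paics (ENSMUSG00000029247) had log2 values of 10.73 and 10.83 on the N-myc ko arrays, against 10.96 and 11.01 on the wild-type arrays. The log2 difference was -0.20 (SE 0.09, 95% interval -0.43 to 0.03), and Paics was not called either (limma adjusted p = 0.181). Ppat had the adjusted p nearest above the limit, and its difference was as wide as that of Srm and Cad.

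Of the 2 genes of mitochondrial one-carbon metabolism, Shmt2 was called lower and Mthfd2 was not called. Shmt2 encodes the serine hydroxymethyltransferase of mitochondria, which moves a carbon from serine to folate. Shmt2 (ENSMUSG00000025403) had log2 values of 8.95 and 8.92 on the N-myc ko arrays, against 9.30 and 9.48 on the wild-type arrays. Here the N-myc ko arrays lay close together and the wild-type arrays were farther apart, the reverse of Odc1. Shmt2 fell by 0.46 on the log2 scale, to 72.8% of its wild-type level (SE 0.10, 95% interval -0.71 to -0.21, limma adjusted p = 0.0368). It had the widest change of the 8 genes and was the only one of them called at the stricter limit of 0.05, at which 8.2% of all genes were called lower and 6.76% higher. Without any 1 array it was still called lower at 0.14, with log2 changes from -0.55 to -0.37. The call was lost, and the log2 change was smaller, after quantile normalisation (-0.27, adjusted p = 0.153) and with cyclic loess (-0.26, adjusted p = 0.164).

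Mthfd2 encodes the mitochondrial enzyme that follows SHMT2 and oxidises the folate-bound carbon. Mthfd2 (ENSMUSG00000005667) had log2 values of 9.06 and 9.33 on the N-myc ko arrays, against 9.08 and 9.23 on the wild-type arrays. The groups overlapped, with the lowest and the highest value both in N-myc ko. The log2 difference was 0.04 (SE 0.12, 95% interval -0.26 to 0.34), and Mthfd2 was not called (limma adjusted p = 0.846). Within each array, Mthfd2 minus Shmt2 was 0.11 and 0.41 on the N-myc ko arrays, against -0.22 and -0.26 on the wild-type arrays. This comparison, too, was chosen after the values were seen. The N-myc ko arrays were higher by 0.50 in this quantity (SE 0.15), but the 95% interval from a linear model, -0.14 to 1.14, included 0.

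Replicates of the N-myc ko group differed in the same direction for most of these genes. N-myc ko replicate 1 was the lower of the N-myc ko arrays for 7 of the 8 genes, all but Shmt2, while over all genes the share was 50.5%. That share includes dim genes, whereas the 8 genes are bright. The upper quartile of all values was 8.941 on N-myc ko replicate 1 and 9.004 on N-myc ko replicate 2. The lower quartile was 6.01 and 5.93, in the opposite order. On wild-type replicates 1 and 2 the upper quartile was 9.14 and 9.18, and the lower quartile was 5.76 and 5.79. The quartiles therefore lay closer together on both N-myc ko arrays than on both wild-type arrays. Whether 7 of 8 is particular to these genes was not tested against genes of equal mean log2 value. The gaps between the N-myc ko arrays reached 0.28 on the log2 scale, for Odc1, and those between the wild-type arrays 0.18, for Shmt2. Set against the wild-type mean of each gene, the median deviation of the 8 genes was -0.36 on N-myc ko replicate 1 and -0.17 on N-myc ko replicate 2. The part of this array difference in the results was not tested beyond leaving each array out. Without N-myc ko replicate 1 the enzyme genes called lower numbered 1 (Shmt2), against 7.18% of all genes, and Odc1 was called higher, against 6.01%. Without N-myc ko replicate 2 the lower calls numbered 5, against 14.7% of all genes. They numbered 1 without wild-type replicate 1, against 12.6% of all genes, and 1 without wild-type replicate 2, against 11.3%. Srm, Cad and Gart lost their calls in each of these fits except the fit without N-myc ko replicate 2. Without that array Ppat was called lower as well, with a log2 change of -0.40 (limma adjusted p = 0.107).

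All 8 enzyme genes were bright, with mean log2 values over the 4 arrays from 8.29 for Ppat to 11.13 for Srm, which is above the median of the table. Genes in this range tended to have lower values in N-myc ko cochleae, while the brightest genes of the table did not. Dimmer genes, with a mean between 5 and 7, tended to have higher values. The median log2 change was -0.21 over the 3934 genes with a mean between 8 and 9, -0.19 over the 3426 genes between 9 and 10, and -0.12 over the 1857 genes between 10 and 11. In these bins 37.9%, 36.5% and 25% of genes were called lower. Over the 708 genes between 11 and 12, where Srm lies, the median was -0.075 and 18.6% were called lower. Over the 231 genes above 12 it was 0.00014, with 9.09% called lower and 7.79% higher. Over the 3502 genes between 5 and 6 the median was 0.161, with 3.51% called lower and 29.7% higher. Over the 3725 genes between 6 and 7 it was 0.163, with 7.87% called lower and 33.6% higher. The lower values of bright genes thus went with higher values of dim genes, and the cause was not tested. When limma was run on the 11939 genes above the median brightness alone, 5 enzyme genes were called lower, Ppat being added, against 34% of these genes, and Odc1 was called higher, against 5.8%. The change of each enzyme gene was therefore set beside the 200 genes nearest to it in mean log2 value, as a description without a test.

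**Figure D2:**
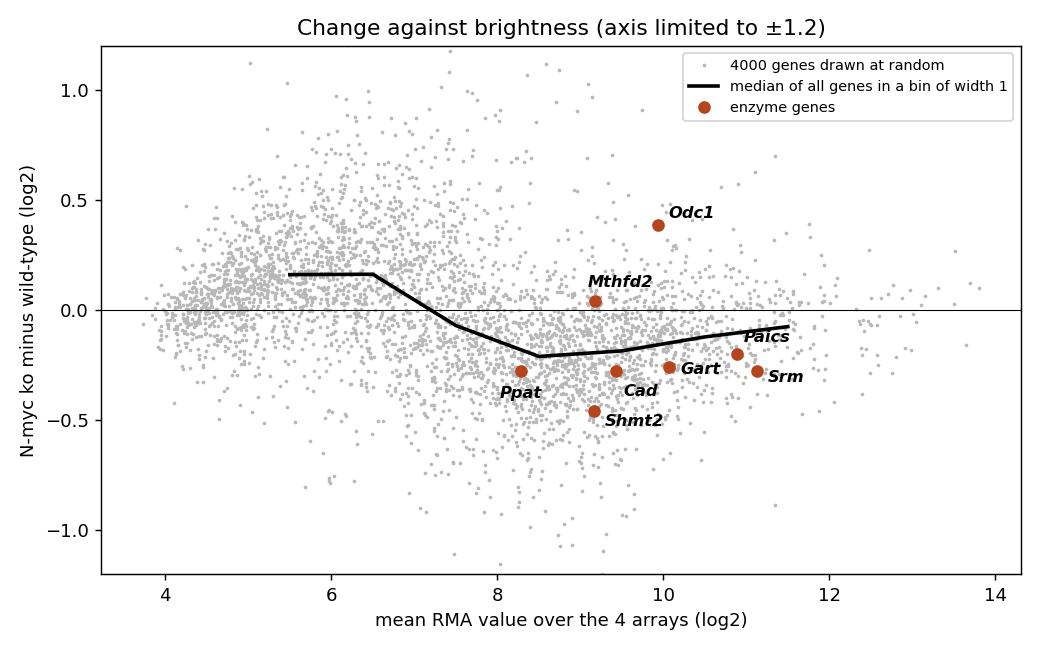
Log2 change (N-myc ko minus wild-type) against the mean RMA value over the 4 arrays, for 4000 genes drawn at random (grey), with the median of all genes in bins of width 1 (line) and the 8 enzyme genes (filled circles). The line runs below 0 over the range of the enzyme genes, 6 of them lie below it, and Odc1 and Mthfd2 lie above it.

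Against genes of equal mean log2 value, 4 of the 8 enzyme genes lay within the interquartile range of their neighbours and 4 lay outside it. By construction a gene is about as likely to lie inside such a range as outside it. The split therefore does not set the 8 genes apart from their neighbours. The medians of the 200 neighbours ran from -0.23 for Shmt2 to -0.08 for Srm. The genes within it were Cad, Ppat, Paics and Gart, at -0.06, -0.06, -0.11 and -0.11 from the neighbour median on the log2 scale. Of the neighbours, 71 had a lower change than Cad, 76 than Ppat, 58 than Paics and 65 than Gart. Leaving out 1 array moved these differences to between -0.16 and 0.01 for Cad, with 0.01 without wild-type replicate 1, and to between -0.14 and 0.04 for Ppat, with 0.04 without N-myc ko replicate 1. The difference was -0.04 for Paics without N-myc ko replicate 1 and -0.17 for Gart without N-myc ko replicate 2.

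Odc1, Shmt2, Srm and Mthfd2 lay outside that range. Odc1 stood 0.56 above its neighbour median of -0.17, and 4 of its 200 neighbours had a higher change. Mthfd2, whose groups overlapped, stood 0.27 above its neighbour median of -0.23, and 26 of its neighbours had a higher change. Shmt2 stood -0.23 from its neighbour median of -0.23, and 22 of its neighbours had a lower change. Srm stood -0.20 from its neighbour median of -0.08, and 37 of its neighbours had a lower change. These differences also moved when 1 array was left out, and each kept its sign. Without N-myc ko replicate 1 that of Srm was -0.097, against -0.045 for Paics and -0.086 for Gart. For Shmt2 the difference ranged from -0.34 without N-myc ko replicate 1 to -0.20 without N-myc ko replicate 2. That of Mthfd2 was 0.15 without N-myc ko replicate 2 and 0.16 without wild-type replicate 1, and that of Odc1 ranged from 0.46 to 0.63. The share of neighbours called lower was 42.5% around Shmt2 and 20% around Srm, and 2% of the neighbours of Odc1 were called higher.

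**Figure D3:**
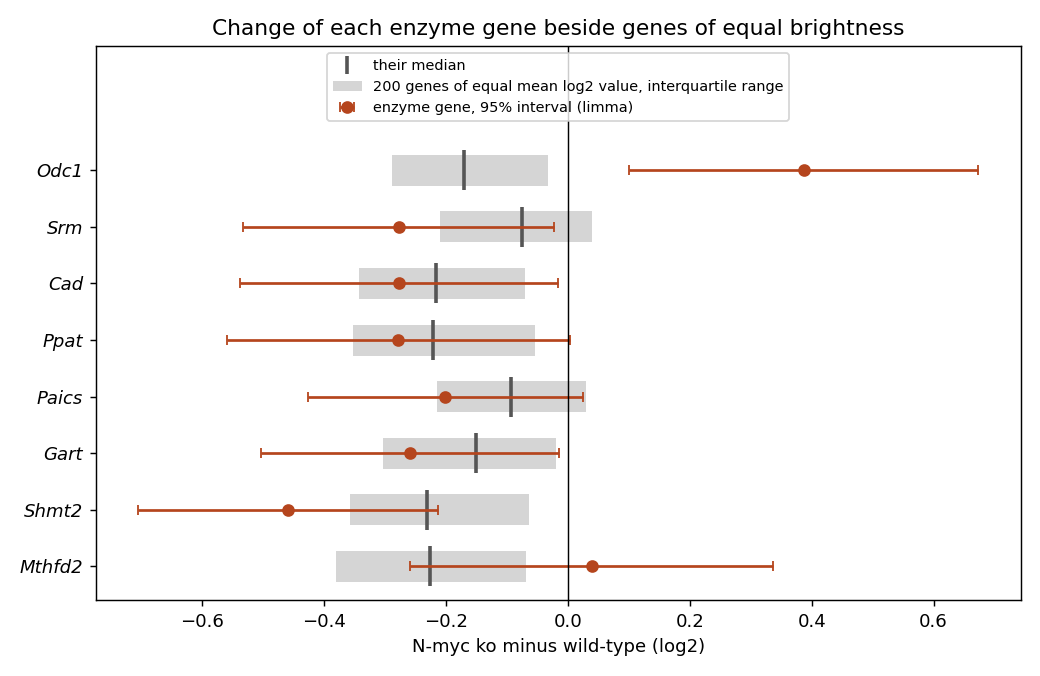
Log2 change of each enzyme gene (circle, with the 95% interval from limma) beside the 200 genes nearest in mean log2 value (grey bar from the lower to the upper quartile, dark tick at the median). Cad, Ppat, Paics and Gart lie inside the bar, Shmt2 and Srm to its left, and Odc1 and Mthfd2 to its right.

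Other scalings of the arrays kept Odc1 and Shmt2 at the extremes and removed 3 or all 4 of the lower calls. After a further quantile normalisation of the deposited values, 0 enzyme genes were called lower (limma), against 10.1% of all genes, and Odc1 was called higher, against 10.1% of all genes. Odc1 then rose by 0.54 on the log2 scale (adjusted p = 0.0408), and Shmt2 had a log2 change of -0.27 (adjusted p = 0.153). Cyclic loess normalisation gave 0 lower calls in limma as well, against 9.7% of all genes. It called Odc1 higher, against 11.1% of all genes, with a log2 change of 0.56 (adjusted p = 0.0363). At an unadjusted p under 0.05, Shmt2 (1 of the 8 genes) was lower in the quantile-normalised values, against 13.5% of all genes, and 1 gene was lower with cyclic loess, against 12.6%. A re-coded form of significance analysis of microarrays, the tool the study names, called 6 lower and 1 higher on the deposited values. The shares of all genes called were 42.6% and 34.4%. The study's own software was not run. With each array centred on its median, Shmt2 alone was called lower (-0.40, adjusted p = 0.0409), against 14.9% of all genes, and Odc1 was called higher (0.44, adjusted p = 0.0551), against 19.6%. Under all 4 scalings the 6 genes with lower values kept a log2 change below 0 and Odc1 and Mthfd2 one above 0. With either of the stronger normalisations, quantile or cyclic loess, 4 enzyme genes had both N-myc ko arrays below both wild-type arrays, against 30.4% and 29.4% of all genes, and 2 had them above, against 27.8% and 29.2%. As deposited, 6 enzyme genes had both N-myc ko arrays below, against 36.2% of all genes, and 1 had them above, against 28.8%. These shares include dim genes and were not taken over genes of equal mean log2 value.

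**Figure D4:**
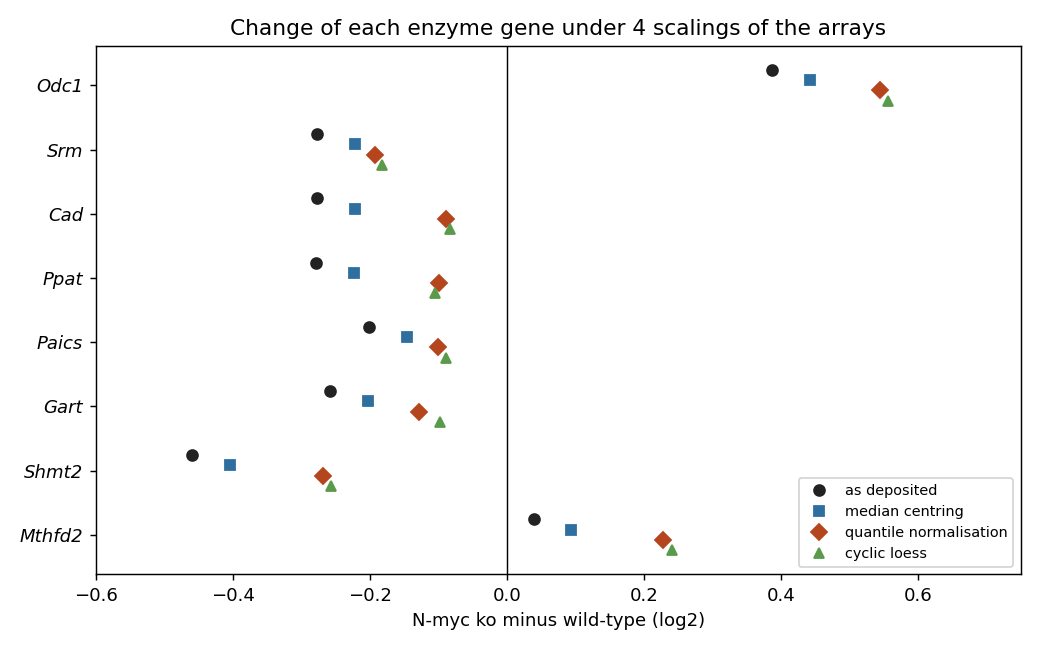
Log2 change (N-myc ko minus wild-type) of each enzyme gene as deposited, and with the arrays median centred, quantile normalised or normalised by cyclic loess. Every gene moves to the right from the deposited values to the quantile-normalised values, Odc1 stays farthest right (0.39 to 0.56) and Shmt2 farthest left (-0.46 to -0.26).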

How the data were processed

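Total RNA from whole cochleae was amplified as cDNA, biotinylated and hybridised, 1 array per sample, per the labels' protocols. The deposited values are log2 expression values, 1 per Ensembl gene ID, that the authors made with RMA and the affy package, per the submitters' processing notes and design text. Versions, array design and probe mapping are not given in the sources used. All 23879 genes entered limma (version 3.58.1, R 4.3.3; lmFit, then eBayes, two-sided, N-myc ko minus wild-type, no filter), with Benjamini-Hochberg adjustment over all genes and a limit of 0.14. Precision is limited by the number of arrays, with 2 residual and 4.33 prior degrees of freedom. The fit was tested on simulated data. Neighbours of a gene are the 200 genes nearest in mean log2 value. All 9 enzyme genes were to be named. The members, lists and tests were chosen with earlier results of these data known. Planned lists of other pathway genes, of Mycn and of cell type markers were not analysed here: the reference table pairs 0 Ensembl IDs with symbols. Alternatives were other scalings, a stricter limit, a brightness trend, significance analysis of microarrays, bright genes alone, a replicate block and leaving out each array. Significance analysis of microarrays was re-coded for this account, with the median standard error over genes added to that of each gene.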

Additional observations from a re-analysis of the deposited data

How the results depend on the processing

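With 4 arrays, changes of the size seen here sat near the limit of what could be called, and the count of enzyme genes called lower depended on the setting. The 4 lower calls became 0 after quantile normalisation, 0 after cyclic loess, 1 after median centring and 1 at an adjusted p of at most 0.05, and ranged from 1 to 5 without 1 array. The 1 higher call, Odc1, became 0 at the stricter limit and ranged from 0 to 1 without 1 array. The median log2 change of the enzyme genes, -0.27, became -0.099 after quantile normalisation and -0.093 after cyclic loess. Both N-myc ko arrays lay above both wild-type arrays for 2 enzyme genes after quantile normalisation and 2 after cyclic loess, against 27.8% and 29.2% of all genes. Over all genes, 4719 were called lower and 3561 higher. The lower calls became 2414 after quantile normalisation, 2316 after cyclic loess, 1958 at the stricter limit and 10167 with significance analysis of microarrays, and ranged from 1715 to 3515 without 1 array. Higher calls numbered 1614 at the stricter limit, 8205 with significance analysis of microarrays and 692 among the bright genes alone, where fewer genes were tested, and ranged from 1436 to 3044 without 1 array. Median centring turned the split to 3566 lower and 4687 higher. The re-coded significance analysis of microarrays has only 6 label arrangements here, the true labelling and its mirror image among them. Mirror images give the same absolute statistic, so fewer than 6 are distinct. It called 42.6% of all genes lower and 34.4% higher, and its false discovery rate is poorly determined here. The log2 difference of Mthfd2 (0.04) ranged from -0.094 to 0.173 without 1 array and was below 0 without wild-type replicate 1 (-0.034) or N-myc ko replicate 2. The difference from the neighbour median ranged from -0.159 to 0.0123 for Cad, above 0 without wild-type replicate 1, and from -0.138 to 0.0423 for Ppat, above 0 without N-myc ko replicate 1. Nothing in the labels says that equal replicate numbers share an origin (the replicate differences of the groups correlate at 0.12 across genes), and the fit with the replicate block called 3 enzyme genes lower and lost Cad (adjusted p = 0.144). It called 5057 of all genes lower (21.2%) and 3778 higher. The limma fit with a brightness trend called 5 enzyme genes lower, Paics being added (adjusted p = 0.132), against 19.7% of all genes. It called 1 higher, against 15.1%. Where 1 array is left out, the remaining array of its group is assumed to vary as the other group does. Except where the construction shows it, the cause was not tested.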
